A study of Mus musculus with 6 samples.

Results

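Genes of the KEGG pathway for protein processing in the endoplasmic reticulum (ER) were compared between the livers of acute ethanol-exposed and control mice. Of the 28880 genes in the deposited liver RNA-seq table, 162 were annotated to this pathway. Chaperone and translation genes whose symbols start with Hsp, Dnaj, Bag or Eif were set aside, as were Atf4, Ddit3, Ppp1r15a, Bax and Nfe2l2, which removed 30 genes and left 132 members. The rule itself reads the annotation and the symbols and no measured value, although it was set with earlier results of these data known. All 6 libraries came from livers of wild-type male C57BL/6J mice that were 6 to 8 weeks old, and all were labelled as batch 1. The 3 ethanol-exposed mice had gone without food for 12 h, received 50% (v/v) ethanol once by mouth at 6 g/kg, and were sampled 24 h after it. The 3 control mice received no ethanol, and the labels do not say whether they were fasted or given another fluid, so that effects of ethanol, fasting and gavage cannot be told apart.

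Secreted and membrane proteins enter the ER through the Sec61 channel, receive a sugar chain, fold with the help of lectin chaperones and disulphide isomerases, and leave in COPII-coated vesicles. Proteins that do not fold are ubiquitinated at the ER membrane, pulled out by the ATPase p97 and degraded by the proteasome, a route called ER-associated degradation (ERAD). When unfolded proteins accumulate, the sensors IRE1, PERK and ATF6 start the unfolded protein response, in which the transcription factors XBP1, ATF4 and ATF6 raise the genes of this machinery. Hepatocytes depend on it heavily, because they secrete most of the proteins of blood plasma.

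Of the 132 members, 127 had enough counts to be tested. Mapk10 had no count in any library, Calr4, Lman1l and Cryaa had at most 5 counts in any library, and Ube2d2b was counted 0, 4 and 0 times in the ethanol-exposed mice against 18, 12 and 4 times in the control mice. Values per mouse are given as CPM (counts scaled to a common library total) after TMM scaling, a scaling by edgeR that assumes most genes do not change between libraries. Genes are called upregulated or downregulated when the adjusted p was below 0.05 and the log2 fold change exceeded 1 in size, and are said to have risen or fallen when the adjusted p was below 0.05 whatever the size.

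Protein processing genes moved in both directions, and their median log2 fold change was 0.00 against -0.04 over all 16717 genes tested. The ERAD ligase components Herpud1, Ube2g2, Ube2j2 and Marchf6, the stress kinase Map3k5 and the transcription factor Xbp1 were upregulated. The sensors Ern1 and Atf6b, the oligosaccharyltransferase subunit Magt1, the disulphide isomerase Pdia4, the COPII coat genes Sec24c and Sec31b, the p97 cofactor Svip and the kinase Map2k7 were downregulated. Hence 6 members (4.72% of those tested) were upregulated, where 10.4% of all genes tested were, and 8 (6.30%) were downregulated, where 13.8% of all genes were. Without the fold threshold, 27 members rose (21.3%) and 25 fell (19.7%), against 21.5% and 21.5% of all genes. The number of downregulated members was 4 without ethanol-exposed mouse 1 and 5 without control mouse 1. Of all genes, 11.9% and 10.2% were downregulated in these settings. The number of members that fell was 14 without control mouse 2, 15 without control mouse 3 and 18 without control mouse 1. The share of all genes that fell was 13.8%, 13.5% and 14.3% without control mice 2, 3 and 1. In 35 members (27.6%) all ethanol-exposed mice lay above all control mice, as in 28.0% of all genes, and in 47 (37.0%) they lay below, as in 31.0%. The changes of the members spanned a narrower range than those of the whole table, with 5th and 95th percentiles of -1.06 and 0.82 on the log2 scale against -2.35 and 1.99. The members were also counted more, with a median log2 CPM per library of 5.49 to 5.6 against 2.42 to 2.63 over all genes tested. The part of this difference in level in the narrower range and in the shares above was not tested.

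**Figure D1:**
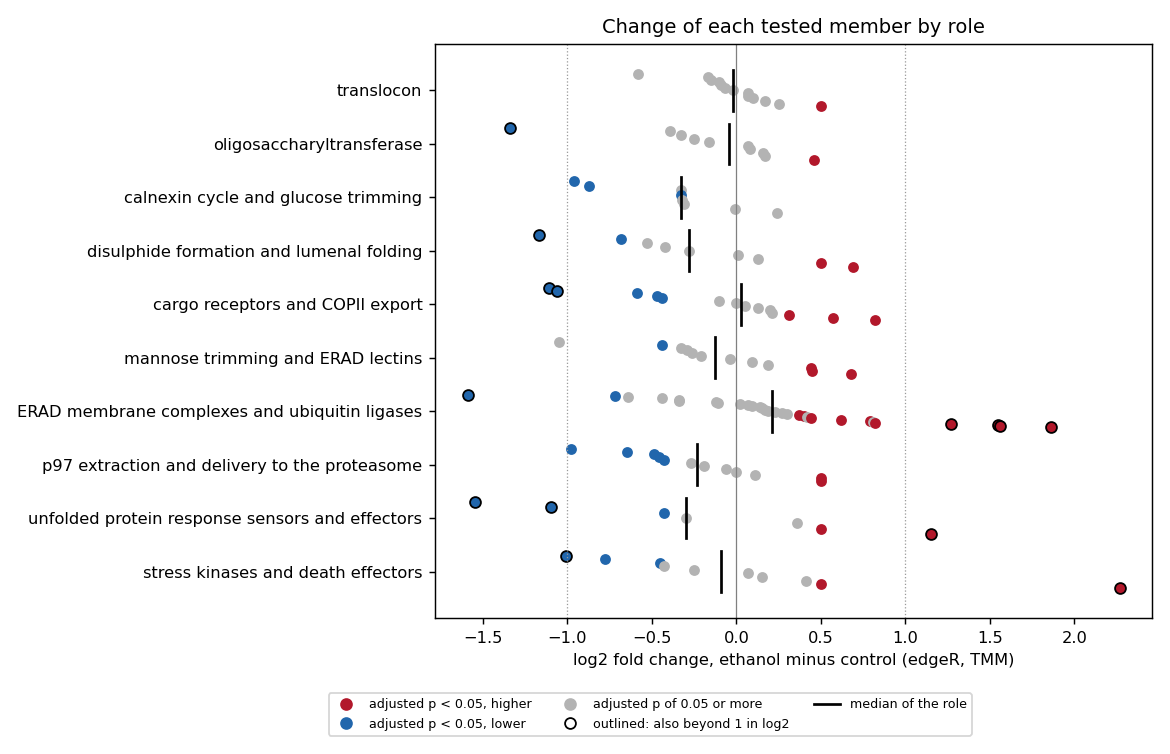
Log2 fold change (ethanol minus control, edgeR with TMM scaling; x axis) of each tested member, arranged by role (y axis). Points are genes, coloured where the adjusted p was under 0.05, and black bars mark the median of a role. The ERAD ligases and membrane complexes had a median of 0.21, and the calnexin cycle a median of -0.33.

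The size of these changes depends on how the libraries are put on a common scale. TMM factors ranged from 0.768 to 0.836 for the ethanol-exposed libraries and from 1.26 to 1.27 for the control libraries, and members took 0.881% to 1.04% of all counts in the former and 1.39% to 1.45% in the latter. With library size alone, the median log2 fold change was -0.68 over the members and -0.71 over all genes, so that the members stayed close to the median of the table. Under that scaling 5 members rose and 88 fell, where 7.39% of all genes rose and 48.3% fell. With upper quartile factors 22 members rose and 36 fell, where 18.5% of all genes rose and 24.8% fell. Map3k5, Herpud1, Ube2g2, Ube2j2 and Marchf6 rose under all 4 scalings tried (TMM, DESeq2 size factors, library size alone and upper quartile), and the 25 members that fell with TMM fell under all 4. Of the 27 members that rose with TMM, 16 had a negative log2 fold change with library size alone, and Ube2d3 and Lman1 fell under it. Over all alternatives of scaling, filter, test and left-out library that could be run on each gene, those 5 and 12 of the 25 falls (Atf6b, Calr, Ern1, Magt1, Map2k7, Pdia4, Rad23b, Sec24c, Sec31b, Ubqln1, Ubqln4 and Ubxn4) kept their direction and an adjusted p below 0.05, while 22 rises and 13 falls did not pass under at least 1 of them. Rises below are therefore relative to the middle of the table, and the 16 whose sign turned with library size alone were Bcap31, Sec24a, Ubxn2a, Ssr4, Ufd1, Mapk8, P4hb, Atf6, Yod1, Dad1, Man1a, Ube2g1, Os9, Selenos, Ube2d3 and Lman1.

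**Figure D2:**
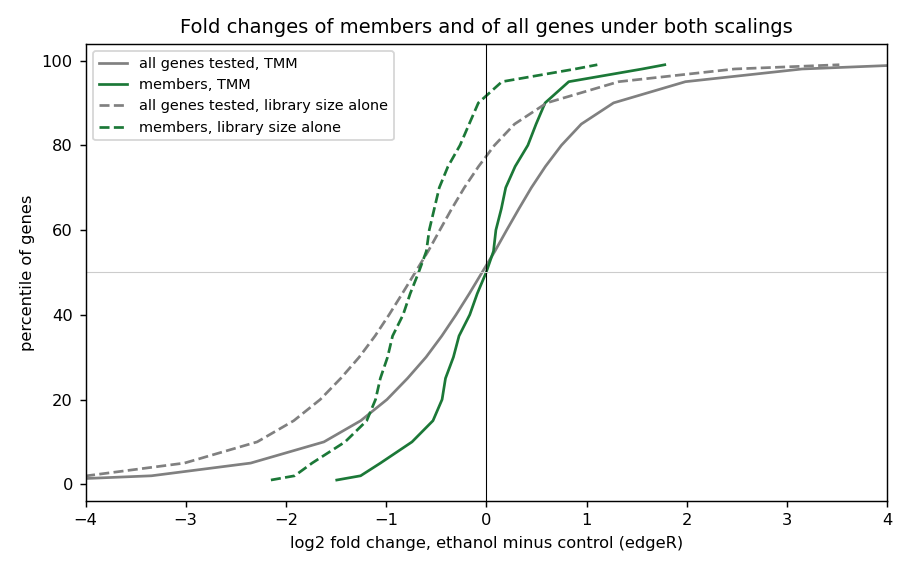
Percentile curves of the log2 fold change (x axis, ethanol minus control, edgeR) for the members (green) and all genes tested (grey), with TMM factors (solid) and with library size alone (dashed); the y axis is the percentile of genes. Each pair of curves crosses near the 50th percentile, at medians of 0.00 and -0.04 with TMM and of -0.68 and -0.71 with library size alone, and the curves of the members are the steeper ones.

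The libraries held between 60514417 and 74210869 counts, and the first principal component, with 65.2% of the variance, separated both groups. Ethanol-exposed mouse 3 stood apart from mice 1 and 2 on the second (16.7%). Summed markers of hepatocytes reached 173550.8 to 182873.3 CPM after ethanol and 93053.6 to 105732.0 CPM without it, with 4 of the 14 listed genes in the table upregulated and none downregulated. The sums for erythroid cells (578.8 to 863.6 against 179.8 to 219.8) and neutrophils (3.22 to 15.3 against 1.15 to 1.63) were also higher in every ethanol-exposed mouse, those of T cells and B cells were lower in every one, and those of Kupffer, endothelial, stellate and bile duct cells overlapped, although within the endothelial list 2 of 9 genes were upregulated and 3 downregulated, within the stellate list 2 of 10 were downregulated, and 1 gene each of the Kupffer and bile duct lists was upregulated. The plasma cell sum (522.4 to 632.0 against 179.9 to 205.7 CPM) was nearly all Sdc1, at a mean of 592.4 against 188.6 CPM, while the other 5 tested plasma cell markers were each under 1 CPM and none passed. The exocrine pancreas sum (9.75 to 11.7 against 17.7 to 22.2 CPM) was nearly all Cela1, at a mean of 9.72 against 19.1 CPM, and its other 7 genes in the table were each under 1 CPM with higher means in the ethanol-exposed mice. No listed marker in the table was at 0 in all libraries, and the hepatocyte markers had by far the highest sum, as the liver label implies. The part of these shifts in the results below was not tested, and in whole tissue fewer cells of a type and less RNA per cell cannot be told apart.

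The unfolded protein response acts on promoters through short motifs, and those were looked for in RefSeq promoters (mouse build GRCm38.p6, 250 bases before to 50 after each start, both strands). Promoters were matched by symbol for 110 of the 132 members. The ER stress response element (ERSE, CCAAT and CCACG with 9 bases of any kind between them) was present in 7 of them (6.36%) against 37 of 27025 genes (0.137%), ERSE-II (ATTGG and CCACG with 1 base between them) in 1 (0.909%) against 12 genes (0.0444%), and the UPRE core (TGACGTGG) in 6 (5.45%) against 193 genes (0.714%). No member held more than 1 of the 3 motifs, and 14 members held any of them (12.7% against 0.884% of genes). The 8 members with ERSE or ERSE-II include the best known stress-inducible genes of the pathway, and the sites of the 7 that were tested are shown, so that they can be set beside the values of these genes. Each line gives the strand of the gene 5′ to 3′ with 20 bases on either side, and capitals mark the fixed bases of the motif (ATTGG and CCACG for the ERSE-II of Herpud1, CCAAT and CCACG for an ERSE, and CGTGG followed by ATTGG for an ERSE that is read on the other strand).
Herpud1 (ERSE-II, chr8:94386357-94386407, plus strand): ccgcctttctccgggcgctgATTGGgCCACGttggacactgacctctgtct
Calr (ERSE on the opposite strand, chr8:84847055-84847113, minus strand): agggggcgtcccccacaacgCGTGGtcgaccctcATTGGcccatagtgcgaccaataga
Canx (ERSE, chr11:50325780-50325838, minus strand): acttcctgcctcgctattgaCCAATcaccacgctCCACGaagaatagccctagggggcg
Pdia6 (ERSE, chr12:17266471-17266529, plus strand): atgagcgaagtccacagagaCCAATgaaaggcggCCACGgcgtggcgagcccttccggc
Ero1b (ERSE on the opposite strand, chr13:12565662-12565720, plus strand): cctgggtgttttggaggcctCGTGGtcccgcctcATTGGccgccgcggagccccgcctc
Syvn1 (ERSE, chr19:6046512-6046570, plus strand): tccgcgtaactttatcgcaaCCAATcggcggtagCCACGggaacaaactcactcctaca
Derl3 (ERSE on the opposite strand, chr10:75893222-75893280, plus strand): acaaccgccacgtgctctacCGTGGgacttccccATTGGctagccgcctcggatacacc

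The 6 tested carriers of the ERSE had log2 fold changes of -0.87 (Calr), -0.68 (Pdia6), -0.64 (Syvn1), -0.44 (Derl3), -0.42 (Ero1b) and -0.33 (Canx), of which the changes of Calr and Pdia6 passed the test, that of Pdia6 not under every alternative. None of the 6 rose and 2 fell, numbers too small to set apart from the 21.5% of all genes that did either. Calr4, the other carrier, was not tested. Herpud1, the sole member with ERSE-II, was upregulated. The UPRE carriers Mapk8, Sec23a, Sec24d, Txndc5, Ube2j1 and Vcp ranged from -0.28 to 0.50, and 1 of the 6, the JNK kinase Mapk8, rose, beside 21.5% of all genes (log2 fold change 0.50, SE 0.11, adjusted p = 0.0103). None of the 8 downregulated members, all with a matched promoter, held any of the 3 motifs, where 12.7% of matched members did. A motif match describes the letters of a window and does not show that a factor binds there.

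Of the 7 sensors and effectors of the unfolded protein response among the members, Xbp1 and Atf6 rose (28.6%). Ern1, Atf6b and Mbtps1 fell (42.9%), beside 21.5% of all genes in each direction. With library size alone none of the 7 rose and 4 fell, where 7.39% of all genes rose and 48.3% fell. Xbp1, the transcription factor made active by IRE1, measured 295.2, 236.6 and 480.3 CPM in ethanol-exposed mice 1, 2 and 3 and 154.2, 153.8 and 149.3 CPM in control mice 1, 2 and 3. The groups did not overlap, the control mice lay close together, and ethanol-exposed mouse 3 was the highest. Xbp1 was upregulated 2.21-fold (log2 fold change 1.15, SE 0.25, adjusted p = 0.00940). That call was lost with library size alone (0.46, adjusted p = 0.119) and without ethanol-exposed mouse 3 (0.81, adjusted p = 0.000533, below the fold threshold). Counts per gene do not separate the spliced from the unspliced Xbp1 mRNA.

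Ern1, which encodes IRE1-alpha, the kinase and RNase that splices Xbp1 mRNA, measured 22.2, 24.5 and 11.4 CPM in the ethanol-exposed mice against 64.6, 55.0 and 50.1 CPM in the control mice. Every ethanol-exposed mouse was far below every control mouse, and mouse 3, the highest for Xbp1, was the lowest for Ern1. Ern1 was downregulated 2.92-fold (log2 fold change -1.55, SE 0.28, adjusted p = 0.00454), and it stayed so under the 15 alternatives that could be run on it (its mean level was under the filter of 5 FPKM, the remaining alternative). Atf6b, a relative of ATF6 that is also cut on ER stress, measured 9.99, 13.8 and 12.4 CPM against 25.0, 25.8 and 26.9 CPM. These groups were well separated, and Atf6b was downregulated 2.15-fold (log2 fold change -1.10, SE 0.14, adjusted p = 0.00129), though its change fell short of the fold threshold without ethanol-exposed mouse 1 (-0.98, adjusted p = 0.00446).

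Atf6 itself, the sensor that moves to the Golgi to be cleaved, measured 52.3, 70.5 and 74.5 CPM in the ethanol-exposed mice against 47.7, 47.9 and 43.8 CPM in the control mice. The ethanol-exposed mice lay above the control mice, mouse 1 by little, and Atf6 rose 1.42-fold (log2 fold change 0.50, SE 0.15, adjusted p = 0.0301) with TMM scaling, and kept its adjusted p under only 5 of 16 alternatives (highest adjusted p = 0.408), losing it with library size alone, upper quartile factors and no filter on low counts, among others. Mbtps1, the site-1 protease that makes the opening cut in ATF6, measured 33.3, 35.1 and 38 CPM against 45, 49.3 and 49.1 CPM and fell (log2 fold change -0.43, SE 0.10, adjusted p = 0.0130). Mbtps2, the site-2 protease (0.36, adjusted p = 0.273), and Wfs1, an ER membrane protein that restrains ATF6 (-0.30, adjusted p = 0.319), did not pass the test. PERK (Eif2ak3), which is no member by the rule, gave -0.25 on the log2 scale (adjusted p = 0.381).

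**Figure D3:**
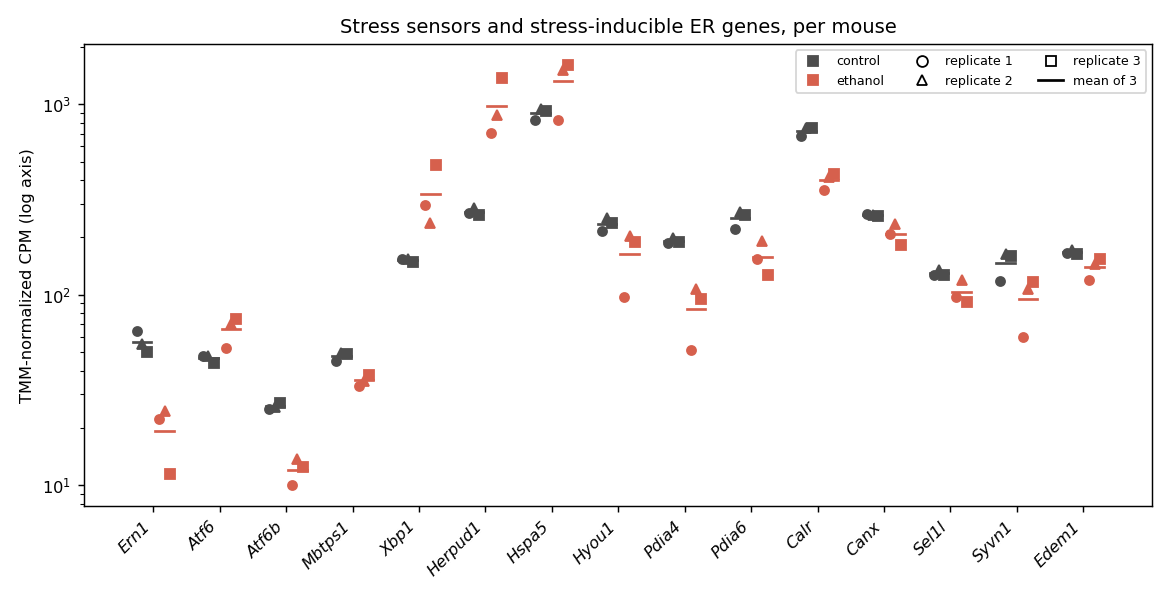
TMM-normalized CPM (y axis, log scale) of sensors and stress-inducible ER genes in each mouse, with control mice in grey and ethanol-exposed mice in red; the marker shape gives the replicate and the bar the mean of 3. All ethanol-exposed mice lie above all control mice for Xbp1, Herpud1 and Atf6. They lie below for Ern1, Atf6b, Mbtps1, Pdia4, Pdia6, Calr, Hyou1, Canx, Sel1l, Syvn1 and Edem1, and the groups overlap for Hspa5. For Hyou1 and Pdia4 ethanol-exposed mouse 1 is the lowest.

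Genes outside the member rule that report ER stress gave mixed values too. Hspa5 (BiP), the main ER chaperone, measured 829.6, 1519.6 and 1605.4 CPM in the ethanol-exposed mice against 823.3, 940.6 and 923.2 CPM, with mouse 1 within the control range (log2 fold change 0.56, SE 0.24, adjusted p = 0.102). Ppp1r15a, a phosphatase subunit that reverses the translation block, was upregulated (2.11, adjusted p = 0.00109), Sdf2l1 fell (-0.96, adjusted p = 0.0407), and Ddit3 (CHOP; 0.13, adjusted p = 0.637), Atf4 (0.55, adjusted p = 0.116), Creld2 (0.76, adjusted p = 0.0838), Dnajb9 (-0.29, adjusted p = 0.479) and Hsp90b1 (0.02, adjusted p = 0.898) did not pass. Of all 30 pathway genes set aside by the rule, 1 was upregulated (3.33%, against 10.4% of all genes) and 4 were downregulated (13.3%, against 13.8%).

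Among 31 members at the ERAD membrane complexes and ubiquitin ligases, 30 were tested, 10 rose (33.3%) and 2 fell (6.67%), against 21.5% of all genes in either direction. With library size alone 4 rose and 16 fell, where 7.39% of all genes rose and 48.3% fell. In 15 of the 30 tested members (50.0%, against 28.0% of all genes) all ethanol-exposed mice lay above all control mice. In 5 (16.7%, against 31.0%) they lay below, and the median log2 fold change of the role was 0.21. Herpud1, a small membrane protein that assembles the HRD1 ligase complex, showed the largest change among them with TMM scaling. It measured 704.3, 872.7 and 1373.1 CPM in ethanol-exposed mice 1, 2 and 3 and 267.4, 285.7 and 261.8 CPM in control mice 1, 2 and 3. Even the lowest ethanol-exposed mouse was well above the control mice, which lay close together. Herpud1 (ENSMUSG00000031770, chromosome 8, 95113066 to 95122005 on the plus strand in the deposited table) was upregulated 3.62-fold, with a log2 fold change of 1.86 (SE 0.24, 95% CI 1.28 to 2.43, adjusted p = 0.00136) and of 1.18 with library size alone, under which 3 members of the same role changed by more, namely Svip (-2.25), Ubxn4 (-1.39) and Syvn1 (-1.30). On a scale per length, its mean was 310.9 FPKM in the ethanol-exposed mice and 137.3 FPKM in the control mice, the fourth highest control level of the members.

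Ube2g2 and Ube2j2 encode the ubiquitin-conjugating enzymes that serve the ER ligases. Ube2g2 measured 95.3, 78.7 and 86.5 CPM in the ethanol-exposed mice against 29.4, 30.6 and 28.1 CPM, and was upregulated 2.96-fold (log2 fold change 1.56, SE 0.11, adjusted p = 0.000159). For Ube2j2 the values were 59.9, 58.5 and 58.7 CPM against 20.6, 19.9 and 20.1 CPM, a 2.92-fold upregulation (1.55, SE 0.09, adjusted p = 8.39e-05). Replicates of both genes lay close together and far from the other group, but with library size alone their changes were 0.89 and 0.88, past the adjusted p and short of the fold threshold. Marchf6, an ER ligase of sterol synthesis enzymes, measured 204.5, 200.3 and 215.1 CPM against 94.3, 81.3 and 81.1 CPM (log2 fold change 1.27, SE 0.11, adjusted p = 0.000249, and 0.60 with library size alone, short of the fold threshold), and lay outside the naming rule, so that it was chosen after its values were seen. The related conjugating enzymes Ube2g1 (0.44, adjusted p = 0.0101) and Ube2d3 (0.37, adjusted p = 0.0147) rose as well, and Ube2j1 gave 0.23 on the log2 scale (adjusted p = 0.226). Ube2d3 kept its rise under 9 of 16 alternatives and fell under 3 others.

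Other members of the same role included UBX proteins, which bind p97. Ubxn1 measured 119.7, 113.7 and 119.6 CPM in the ethanol-exposed mice against 63.5, 66.1 and 69.9 CPM and rose (log2 fold change 0.82, SE 0.09, adjusted p = 0.000759). Ubxn6 (50.1, 44.1 and 40.3 against 27.0, 26.7 and 23.8 CPM) rose by 0.79 on the log2 scale (adjusted p = 0.00227). Both were above the control range in every ethanol-exposed mouse, as were Bcap31, an escort for membrane proteins (0.62, adjusted p = 0.00621), and Selenos, a p97 receptor (0.40, adjusted p = 0.0250). Selenos kept its rise under only 4 of 16 alternatives. Ubxn4, which anchors p97 at the ER, measured 56.0, 72.2 and 77.4 CPM against 111.8, 116.6 and 110.2 CPM and fell (-0.72, SE 0.14, adjusted p = 0.00555), and Ubxn8 did not pass (0.07, adjusted p = 0.770). Svip, a small inhibitor of p97-dependent ERAD, measured 5.37, 4.32 and 1.61 CPM against 11.8, 11.5 and 10.7 CPM. It was low in all ethanol-exposed mice, lowest in mouse 3, and was downregulated 3.0-fold (-1.59, SE 0.39, adjusted p = 0.0158), with an adjusted p of 0.0540 without control mouse 1 and 0.0515 without control mouse 2.

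The core of the HRD1 complex did not follow Herpud1. Syvn1, the HRD1 ligase, measured 59.7, 107.5 and 116.6 CPM in the ethanol-exposed mice and 118.4, 164.1 and 158.9 CPM in the control mice (log2 fold change -0.64, SE 0.26, adjusted p = 0.0847). Its partner Sel1l measured 97.1, 119.8 and 91.4 CPM against 126.8, 135.0 and 127.3 CPM (-0.34, SE 0.13, adjusted p = 0.0667). For both genes every ethanol-exposed mouse lay below every control mouse, without passing the test. Under some alternatives they did pass. For Syvn1 these included library size alone (adjusted p = 0.00526) and DESeq2 (adjusted p = 0.0332), but not upper quartile factors (adjusted p = 0.0548). For Sel1l they included library size alone (adjusted p = 0.00143) and upper quartile factors (adjusted p = 0.0300), but not DESeq2 (adjusted p = 0.0675). The derlins, which form the channel for retrotranslocation, gave log2 fold changes of 0.27 for Derl1 (adjusted p = 0.0593, 95% CI 0.04 to 0.50), -0.34 for Derl2 (adjusted p = 0.0557) and -0.44 for Derl3 (adjusted p = 0.674). Derl3 was low and scattered, at 1.01, 4.37 and 0.550 CPM against 1.17, 3.94 and 2.95 CPM.

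**Figure D4:**
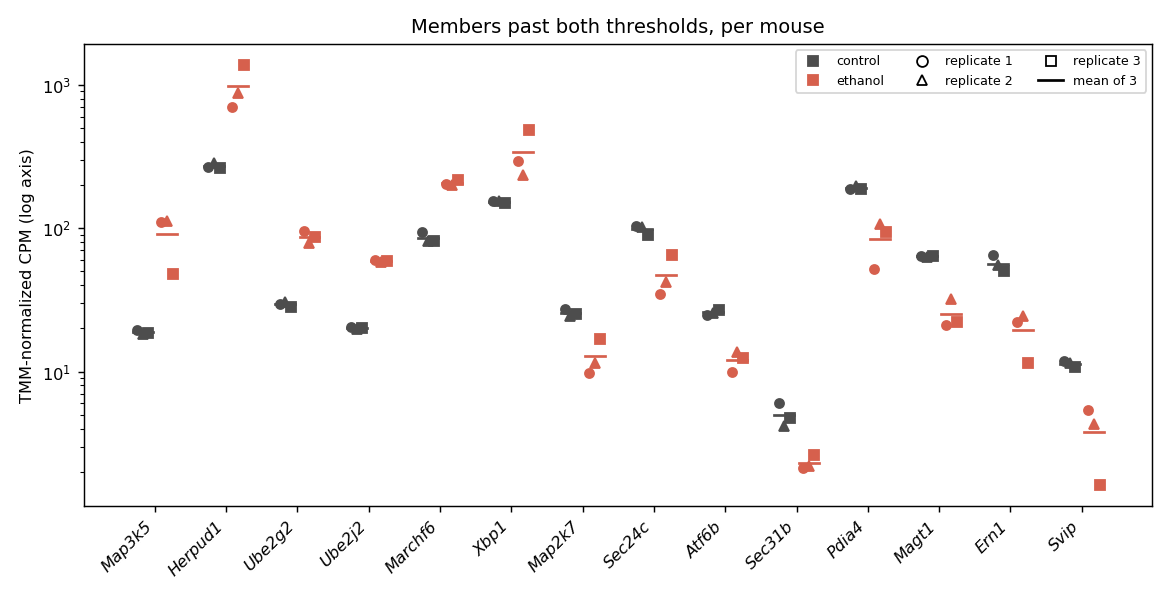
TMM-normalized CPM (y axis, log scale) in each mouse for the 14 members that were upregulated or downregulated, with control mice in grey and ethanol-exposed mice in red; the marker shape gives the replicate and the bar the mean of 3. The groups do not overlap for any of the 14 genes. Among the ethanol-exposed mice, mouse 3 is the highest for Herpud1, Xbp1, Marchf6, Sec24c, Sec31b and Map2k7 and the lowest for Map3k5, Ern1 and Svip.

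Further along the route, 2 of 12 members for p97 extraction and delivery rose (16.7%) and 5 fell (41.7%). Of all genes 21.5% did either, and the median log2 fold change of the role was -0.23. None of the 12 rose and 10 fell with library size alone, where 7.39% of all genes rose and 48.3% fell. Ufd1, the ubiquitin-binding adaptor of p97, measured 37.0, 34.9 and 39.0 CPM in the ethanol-exposed mice against 26.7, 26.9 and 25.1 CPM and rose (0.50, SE 0.10, adjusted p = 0.00657). Yod1, a deubiquitinase, rose as well (0.50, adjusted p = 0.0434), but kept its rise under only 5 of 15 alternatives. Counts on the opposite-strand gene Pfkfb2 also came to 99.8% of those on Yod1, and the use of strand in counting is not stated. The shuttle genes that carry substrates to the proteasome went the other way. Ubqln1 measured 78.5, 89.9 and 83.7 CPM against 131.8, 134.5 and 129.4 CPM, with a wide gap between the groups, and fell (-0.65, SE 0.10, adjusted p = 0.00212). Ubqln4 (-0.98, adjusted p = 0.00948), Rad23b (-0.49, adjusted p = 0.00648), Nsfl1c (-0.46, adjusted p = 0.0326) and the deubiquitinase Atxn3 (-0.43, adjusted p = 0.0262) fell too. Nsfl1c kept its fall under 9 of 16 alternatives and Atxn3 under 8 of 15. Vcp, which encodes p97, measured 193.9, 217.9 and 173.8 CPM against 235.1, 246.0 and 226.9 CPM, lower in each ethanol-exposed mouse without passing the test (-0.27, SE 0.12, adjusted p = 0.0947).

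Lectins and mannosidases that sort glycoproteins for degradation gave 3 rises (25.0%) and 1 fall (8.33%) among 12 members. Of all genes 21.5% did either, and the median log2 fold change of the role was -0.13. Library size alone gave no rise and 7 falls among the 12, where 7.39% of all genes rose and 48.3% fell. Os9, a lectin of the HRD1 complex, measured 273.5, 276.6 and 236.3 CPM in the ethanol-exposed mice against 194.5, 195.5 and 188.0 CPM and rose (0.44, SE 0.11, adjusted p = 0.0134). Erlec1, its companion lectin, measured 26.1, 24.8 and 21.9 CPM against 14.6, 16.9 and 13.9 CPM and rose by 0.68 on the log2 scale (SE 0.13, adjusted p = 0.00539). Both lectins were above the control range in all ethanol-exposed mice. The mannosidase Man1a rose (0.45, adjusted p = 0.00776), and Ngly1, which strips sugar chains from retrotranslocated proteins, fell (-0.44, adjusted p = 0.0126), beside 82.4% as many counts on the opposite-strand gene Oxsm. Edem1, a mannosidase-like protein that XBP1 is known to induce, measured 118.9, 145.2 and 154.1 CPM against 165.0, 172.4 and 163.8 CPM (-0.26, SE 0.12, adjusted p = 0.122). Edem3 measured 20.3, 4.41 and 20.3 CPM against 27.9, 30.7 and 34.5 CPM, and the low value of ethanol-exposed mouse 2 gave its change a wide error (-1.05, SE 0.50, adjusted p = 0.130).

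In the calnexin cycle, which retains glycoproteins until they fold, none of 8 tested members rose and 3 fell (37.5%, against 21.5% of all genes). The median log2 fold change of the role was -0.33. With library size alone 7 of the 8 fell, where 48.3% of all genes did. Calr encodes calreticulin, the soluble lectin chaperone of the cycle. It measured 354.1, 414.1 and 428.4 CPM in the ethanol-exposed mice (398.9 ± 39.4, SD, n = 3) and 680.9, 750.0 and 750.3 CPM in the control mice (727.0 ± 40.0, SD, n = 3). The spread was alike in both groups and far smaller than the gap between them, and Calr fell 1.82-fold (log2 fold change -0.87, SE 0.12, adjusted p = 0.00157). Canx, the membrane-bound counterpart, measured 207.4, 235.1 and 183.1 CPM against 264.9, 262.5 and 259.0 CPM, all lower without passing the test (-0.33, SE 0.12, adjusted p = 0.0590, 95% CI -0.61 to -0.05). Uggt1, the folding sensor that returns glycoproteins to the cycle, fell (-0.33, adjusted p = 0.0356), and so did its paralog Uggt2 (-0.96, adjusted p = 0.0277) from a far lower level. Neither passed with the length trend removed or without ethanol-exposed mouse 1 or any of the 3 control mice (highest adjusted p of 0.294 and 0.0934). Pdia3, the isomerase that works with both lectins, measured 363.6, 428.1 and 289.6 CPM against 421.6, 466.5 and 452.1 CPM, with overlapping groups (-0.31, SE 0.16, adjusted p = 0.147).

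Of 9 members for disulphide formation and lumenal folding, 2 rose (22.2%) and 2 fell (22.2%) with TMM scaling. This was close to the 21.5% of all genes in each direction. None of the 9 rose and 7 fell with library size alone, where 7.39% of all genes rose and 48.3% fell. P4hb, the protein disulphide isomerase with the highest level of all members (466.4 ± 18.9 FPKM, SD, n = 3 control mice), measured 1563.0, 1656.7 and 1577.1 CPM in the ethanol-exposed mice against 1083.2, 1179.2 and 1131.7 CPM. Ero1a, the oxidase that recharges it, measured 24.2, 32.9 and 30.4 CPM against 18.1, 18.3 and 18 CPM. Neither gene overlapped between groups, and both rose with TMM scaling (P4hb 0.50, SE 0.10, adjusted p = 0.00778, and Ero1a 0.69, SE 0.13, adjusted p = 0.00631). P4hb stood at -0.17 and Ero1a at 0.02 with library size alone. The paralog Ero1b gave -0.42 on the log2 scale (adjusted p = 0.0763).

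Pdia4 measured 51.5, 107.5 and 94.7 CPM in the ethanol-exposed mice against 186.5, 197.6 and 188.7 CPM in the control mice. Mouse 1 was the lowest and the groups were far apart, and Pdia4 was downregulated 2.26-fold (log2 fold change -1.17, SE 0.25, adjusted p = 0.00924), or by less than the fold threshold without that mouse (-0.92, adjusted p = 0.00491). Pdia6, which also binds the lumenal side of IRE1, measured 154.3, 191.7 and 127.5 CPM against 221.7, 273.2 and 262.0 CPM and fell (-0.68, SE 0.17, adjusted p = 0.0164), without passing when ethanol-exposed mouse 1 (adjusted p = 0.0619), control mouse 2 or control mouse 3 was left out or the length trend was removed (highest adjusted p = 0.0667). Hyou1, the nucleotide exchange factor of BiP, measured 97, 204.1 and 189.5 CPM against 216.2, 253.7 and 237.8 CPM, and did not pass (-0.53, SE 0.26, adjusted p = 0.145, 95% CI -1.15 to 0.09). Mouse 1, the lowest for Pdia4 and Hyou1, was also the lowest for Hspa5 and Syvn1 among the ethanol-exposed mice.

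**Figure D5:**
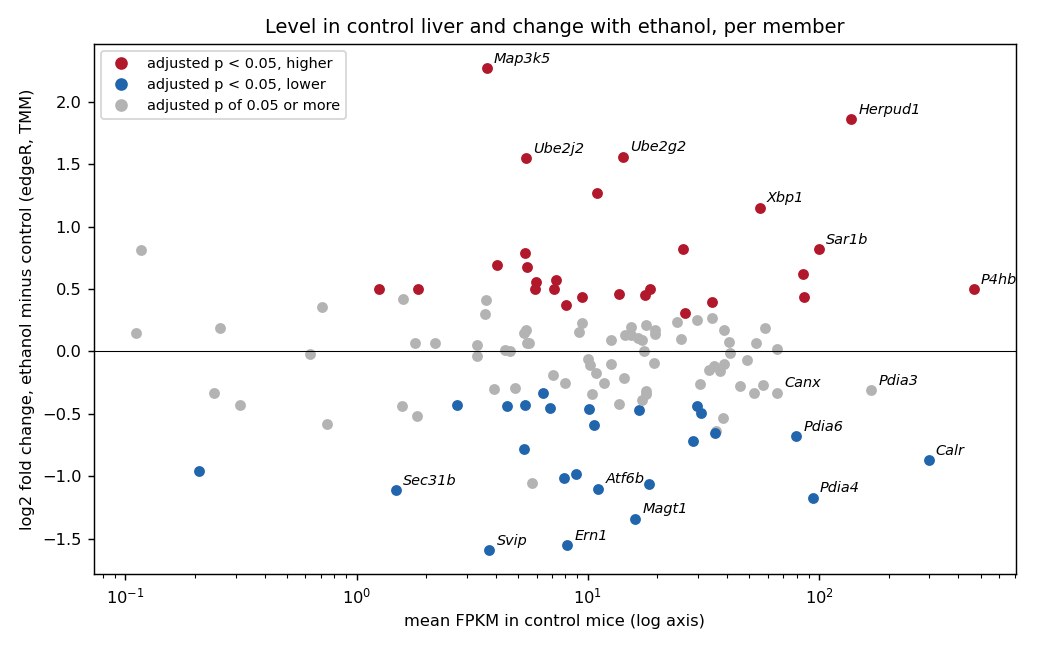
Mean FPKM in the control mice (x axis, log scale) against the log2 fold change (y axis, ethanol minus control, edgeR with TMM scaling) of each tested member, coloured where the adjusted p was under 0.05. Of the 72 tested members at 10 FPKM or more, 14 rose and 13 fell, and of the 55 below it 13 rose and 12 fell.

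Changes were spread over the whole range of levels. In control liver the members had a median of 10.9 FPKM (a level per transcript length and library size). P4hb (466.4 FPKM), Calr (297.7), Pdia3 (167.8) and Herpud1 (137.3) were at 100 FPKM or more, 68 members lay between 10 and 100, 46 between 1 and 10, and 14 under 1. The gaps between these 4 levels were wider than their SDs of 18.9, 15.6, 8.23 and 6.32 FPKM. In the ethanol-exposed mice Herpud1 (310.9 FPKM) stood above Calr (102.6 FPKM), which is the reverse of the order in control liver.

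Export from the ER gave 3 rises (21.4%) and 5 falls (35.7%) among 14 tested members, where 21.5% of all genes rose and 21.5% fell. Library size alone gave no rise and 11 falls among the 14, where 7.39% of all genes rose and 48.3% fell. Sar1b, the GTPase that starts COPII coats on lipoprotein cargo, measured 217.3, 206.0 and 137.5 CPM in the ethanol-exposed mice against 113.8, 102.3 and 102.0 CPM. Ethanol-exposed mouse 3 was nearest to the control mice, and Sar1b rose (log2 fold change 0.82, SE 0.18, adjusted p = 0.00999), passing the fold threshold only when that mouse was left out (1.01). Its paralog Sar1a measured 41.7, 38.9 and 85.7 CPM against 56.1, 55.1 and 55.4 CPM, with mouse 3 on the other side of the control mice (0.00, SE 0.29, adjusted p = 0.996). The cargo adaptors differed likewise. Sec24a rose (0.57, SE 0.14, adjusted p = 0.0175), Sec24d gave 0.20 on the log2 scale (adjusted p = 0.226), and Sec24c was downregulated from 103.4, 102.1 and 89.6 CPM in the control mice to 34.7, 41.9 and 64.7 CPM (-1.06, SE 0.23, adjusted p = 0.00868). Sec24c missed the fold threshold without ethanol-exposed mouse 1 (-0.89) or ethanol-exposed mouse 2 (-0.99), and Sec31b missed it without control mouse 1 (-0.95). The outer coat genes Sec31a (-0.47, adjusted p = 0.00796) and Sec31b (-1.11, adjusted p = 0.00691) fell, the latter from the low level of 6.03, 4.20 and 4.71 CPM to 2.12, 2.19 and 2.62 CPM. The cargo lectin Lman1 rose (0.31, adjusted p = 0.0404) and Lman2 fell (-0.44, adjusted p = 0.0130). Lman1 kept its rise under only 3 of 16 alternatives and fell under 3 others, and Sec24a kept its rise under 7 of 16.

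With TMM scaling, few genes for entry into the ER passed the test. Of 13 translocon members, Ssr4, a subunit of the translocon-associated complex, rose (73.8, 65.4 and 66.3 CPM against 41.3, 54.3 and 50.1 CPM, log2 fold change 0.50, SE 0.13, adjusted p = 0.0189), and none fell, which is 7.69% and 0.00% against 21.5% of all genes in either direction. With library size alone none rose and 11 of the 13 fell, where 7.39% of all genes rose and 48.3% fell. Ssr4 kept its rise under 7 of 16 alternatives. The channel subunits Sec61a1 (0.25, adjusted p = 0.0996) and Sec61b (-0.15, adjusted p = 0.267) did not pass with TMM scaling. Of 10 oligosaccharyltransferase subunits, 1 rose and 1 fell, or 10% each against 21.5% of all genes. None of the 10 rose and 9 fell with library size alone, beside the same shares of all genes. Dad1 rose (65.3, 60.1 and 63.3 CPM against 42.0, 46.7 and 48.1 CPM, 0.46, SE 0.10, adjusted p = 0.00926) and Magt1 fell. Magt1, which encodes the oxidoreductase subunit of the STT3B complex, measured 21.0, 31.9 and 22.2 CPM in the ethanol-exposed mice (25.0 ± 5.94, SD, n = 3) and 63.6, 62.5 and 64.3 CPM in the control mice (63.5 ± 0.900, SD, n = 3). No ethanol-exposed mouse came near the narrow control range, and Magt1 was downregulated 2.54-fold (-1.34, SE 0.17, adjusted p = 0.00118), a call kept under every alternative tried. The catalytic subunits Stt3a (-0.25, adjusted p = 0.196) and Stt3b (0.17, adjusted p = 0.231) did not pass.

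With TMM scaling, the largest log2 fold change of any member was that of Map3k5, which encodes ASK1, a kinase that IRE1 and TRAF2 activate upstream of JNK. It measured 111.0, 112.3 and 48.2 CPM in ethanol-exposed mice 1, 2 and 3 and 19.4, 18.3 and 18.7 CPM in control mice 1, 2 and 3. Mouse 3 was far below the other ethanol-exposed mice and still above all control mice. Map3k5 was upregulated 4.81-fold (log2 fold change 2.27, SE 0.31, 95% CI 1.53 to 3.0, adjusted p = 0.00158), and by 1.61 on the log2 scale with library size alone, under which 11 members changed by more, all of them lower, among them Svip (-2.25) and Ern1 (-2.20). Among the kinases below it, Mapk8 (JNK1) measured 17.2, 16.8 and 17.9 CPM against 11.4, 12.1 and 13.0 CPM and rose by 0.50, Mapk9 gave -0.25 on the log2 scale (adjusted p = 0.138), and Map2k7, which activates JNK, measured 9.84, 11.4 and 17 CPM against 27.1, 24.5 and 25.4 CPM. Map2k7 was downregulated 2.01-fold (-1.01, SE 0.21, adjusted p = 0.00749), just past the fold threshold, which it missed with the length trend removed (-0.85) and without ethanol-exposed mouse 1 (-0.85), ethanol-exposed mouse 2 (-0.94) or control mouse 1 (-0.97). Over the 10 tested stress kinases and death effectors, 2 rose (20%) and 3 fell (30%), against 21.5% of all genes in either direction. Library size alone gave 1 rise and 5 falls among the 10, where 7.39% of all genes rose and 48.3% fell. The calpain genes Capn1 (-0.78, adjusted p = 0.0140) and Capn2 (-0.45, adjusted p = 0.0162) fell, and the death effectors Bak1 (0.41, adjusted p = 0.213), Bcl2 (0.15, adjusted p = 0.746) and Casp12 (-0.43, adjusted p = 0.523) did not pass.

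The members, like the table as a whole, varied more among ethanol-exposed than among control mice. Over the 126 members with counts in every library, the ratio of the highest to the lowest mouse had a median of 1.29 in the ethanol-exposed group and 1.10 in the control group, and it was wider in the ethanol-exposed group for 107 members (84.9%). Over the 15193 genes tested with counts in every library, the medians were 1.51 and 1.22, and 73.8% of genes were wider in the ethanol-exposed group. These genes were not matched to the members in level, and the members were counted more than all genes tested (median log2 CPM of 5.49 to 5.6 against 2.42 to 2.63). The ratio exceeded 1.5 in 36 members (28.6%) among the ethanol-exposed mice and in 5 (3.97%) among the control mice, against 50.9% and 25.0% of all genes. Of those 36, mouse 3 was the highest in 16, mouse 2 in 15 and mouse 1 in 5. Derl3 (7.95), Edem3 (4.6), Svip (3.34) and Mogs, the glucosidase that opens glucose trimming (2.98), had the widest ratios among the ethanol-exposed mice. Members had a median relative length of 1.16 times that of the genes tested, and over all genes the median log2 fold change passed from 0.26 in the shortest of 4 equal classes of genes to -0.18 in the longest. In the same classes the members had medians of 0.16 (n = 11), 0.04 (n = 36), 0.05 (n = 41) and -0.17 (n = 39).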

How the data were processed

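Total RNA from the livers of 3 acute ethanol-exposed and 3 control mice was sequenced with Illumina paired-end reads. For each Ensembl gene the authors deposited a raw read count and its FPKM value, which is scaled to the length of the transcript and the size of the library. Adaptor, low-quality and ambiguous reads had been removed. The aligner, the counting tool and its use of strand are not given in the sources used here. The submitters' processing notes name GRCm38 and mm10, yet only 494 of 27049 genes shared with GENCODE M21, an annotation of that build, had the same coordinates here. Gene coordinates are thus as deposited and promoter coordinates are those of RefSeq, and neither was converted. A count column (1 in all) matching no sample was not used, and 82 symbols occurred more than once, so genes were kept apart by identifier.

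Counts of all genes were filtered by filterByExpr, scaled by TMM and compared between groups by edgeR's quasi-likelihood test, two-sided, with Benjamini-Hochberg adjustment over the 16717 genes tested (R 4.3.3, edgeR 4.0.16, limma 3.58.1, DESeq2 1.42.0, data.table at 1.17.8; figures and motif searches in Python 3.11.15 with pandas 2.3.3 and matplotlib 3.10.9). Thresholds were an adjusted p of 0.05 and an absolute log2 fold change of 1. The biological coefficient of variation was 0.299 and the median SE of a log2 fold change 0.26. Totals of 60514417 to 74210869 counts keep counting error below the spread between mice for most genes, so that the precision is set by the 3 mice per group. The test was checked on simulated counts. Alternatives were DESeq2, DESeq2 size factors, library size alone, upper quartile factors, removal of the trend with transcript length, limma on log2(FPKM + 1) and log2(FPKM + 0.1), both on genes whose mean FPKM reached 0.5, no filter on low counts, a mean FPKM of at least 5, the replicate number as a block, and each library left out in turn. Libraries of a group differed by more than sampling noise, and none was a duplicate.

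Named members were a hand-written set of core genes, and in each role the up to 3 upregulated and up to 3 downregulated members with the largest changes whose groups did not overlap. Other members appear as parts of a role. The members, roles and lists were chosen with earlier results of these data known.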

Additional observations from a re-analysis of the deposited data

How the results depend on the processing

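Among the members, 6 were upregulated and 8 downregulated, 27 rose and 25 fell at the adjusted p alone, and the median log2 fold change was 0.00. With library size alone, these became 2, 32, 5, 88 and -0.68. With limma (121 members tested) they became 2, 22, 5, 90 and -0.58 on log2(FPKM + 1) and 2, 34, 5, 90 and -0.67 on log2(FPKM + 0.1). Of all genes, 48.3% fell with library size alone, 56.7% with limma on log2(FPKM + 1) and 56.2% with limma on log2(FPKM + 0.1). In the same order, 7.39%, 8.88% and 8.90% rose, and the medians over all genes were -0.71, -0.43 and -0.6. Upregulated were 5.06%, 3.52% and 4.93% of all genes, and downregulated were 32.2%, 14.8% and 30.8%. Restriction to a mean FPKM of 5 or more gave 11 rises, 38 falls and a median of -0.26 (89 members tested, median over all genes 0.01). Of all genes under this restriction, 29.3% rose and 27.5% fell. With the trend of transcript length removed, 5 were downregulated, 36 rose, 14 fell and the median was 0.11. In this setting 11.5% of all genes were downregulated, 23.9% rose and 18% fell, with a median of 0.03. Upper quartile factors gave a median of -0.10 (-0.14 over all genes). With the replicate number as a block, the median was -0.05, 6 were upregulated, 9 downregulated, 21 rose and 22 fell. Under the block 9.08% of all genes were upregulated, 12.0% downregulated, 17.3% rose and 17.3% fell, with a median of -0.07. Same-numbered mice did not deviate together (correlations of -0.03, -0.02 and -0.02), no library correlated best with its own number, and the mice share only a number. Leaving out 1 library gave 6 to 6 upregulated, 4 to 9 downregulated (4 without ethanol-exposed mouse 1, 5 without control mouse 1), 18 to 32 rises (18 without control mouse 3), 14 to 33 falls (14, 15 and 33 without control mouse 2, control mouse 3 and ethanol-exposed mouse 3) and medians of -0.06 to 0.00. Over all genes, leaving out 1 library gave 9.88% to 16.5% downregulated, 14.5% to 24.7% rises and 13.5% to 27.4% falls. DESeq2, DESeq2 size factors in edgeR and no filter on low counts kept every one of the members' counts within 1.5 times. No upregulated or downregulated member took the opposite sign under any alternative, but Lman1 and Ube2d3, which rose with TMM, fell under 3 (library size alone and both forms of limma). Of the rises, 5 of 27 and of the falls 12 of 25 kept an adjusted p below 0.05 in every alternative that could be run. Herpud1, Map3k5 and Magt1 stayed past both thresholds in all of them, and Ern1 in all but the mean FPKM of 5 or more, which left it out. Calr passed the fold threshold with library size alone, with limma and at a mean FPKM of at least 5 (-1.14 to -1.54), and Sec24c, Sec31b and Map2k7 missed it with the length trend removed (-0.87, -0.95 and -0.85), as did Sec24c without ethanol-exposed mouse 1 or 2 (-0.89 and -0.99) and Sec31b without control mouse 1 (-0.95) and with limma on log2(FPKM + 1) (-0.79). Xbp1 lost its call with library size alone, with limma, at a mean FPKM of 5 or more and without ethanol-exposed mouse 3 (0.40 to 0.89), and Ube2g2, Ube2j2 and Marchf6 lost theirs with library size alone and with limma (0.77 to 0.89 for the former pair, and 0.60 and 0.56 for Marchf6 with library size alone and limma on log2(FPKM + 1)). The cause of these differences was not tested. At this depth, 5 members had too few counts to be tested.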
